A study of Mus musculus with 2 samples.

Results

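Transcripts of 31 genes of cholesterol and fatty acid metabolism were counted in cells taken from mouse mammary tumours by their CD11c. The 31 genes, chosen by symbol from 27998 genes listed, fell into 4 roles: 11 enzymes of sterol synthesis, 4 enzymes of fatty acid synthesis, 5 regulators, and 11 genes of efflux, storage and lysosomal release. Apoc2 had 2 entries, which gave 32 rows. The study held a single group of wild-type mice carrying PyMT on the C57BL/6N background, with 2 libraries called replicate 1 and replicate 2 here. PyMT, the middle T antigen of polyoma virus, drives mammary tumours, and the promoter behind it is not given in the sources used here. CD11c is the integrin alpha chain encoded by Itgax, found on many dendritic cells and macrophages. Age and any pooling of mice are likewise not given, and there was no untreated or tumour-free group, so the comparisons were made between cell classes inside the libraries.

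Cells make cholesterol from acetyl units through the mevalonate pathway and squalene. SREBP2, the product of Srebf2, switches that pathway on when sterols in the endoplasmic reticulum run low, and Insig1 encodes an anchor that holds SREBP back when they are plentiful. SREBP1, from Srebf1, acts mainly on fatty acid synthesis. The oxysterol receptor LXR alpha, from Nr1h3, turns on the efflux pumps Abca1 and Abcg1, through which macrophages hand cholesterol to lipoproteins. Macrophages also take up cholesterol from lipoproteins and dead cells, release it in lysosomes by way of Lipa, Npc1 and Npc2, and store it as esters made by Soat1.

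SREBP and its partner NF-Y bind close to the start of many of these genes, so 5 promoters are shown, of members that differ between classes or carry the searched elements. Of the 31 members, 24 matched RefSeq promoters (GRCm38.p6), each running from 250 bases before the start to 50 after it, 300 in all. Capitals mark the sterol regulatory element searched (TCACNCCAC) and the CCAAT box (CCAAT, or ATTGG when it lies on the other strand). Idi1 is at chr13:8885356-8885655 on the plus strand and Hmgcs1 at chr13:119690101-119690400 on the plus strand. Cyp51 is at chr5:4104648-4104947, Msmo1 at chr8:64733529-64733828 and Fasn at chr11:120824498-120824797, all on the minus strand, and each is printed 5′ to 3′ along its gene.
Idi1: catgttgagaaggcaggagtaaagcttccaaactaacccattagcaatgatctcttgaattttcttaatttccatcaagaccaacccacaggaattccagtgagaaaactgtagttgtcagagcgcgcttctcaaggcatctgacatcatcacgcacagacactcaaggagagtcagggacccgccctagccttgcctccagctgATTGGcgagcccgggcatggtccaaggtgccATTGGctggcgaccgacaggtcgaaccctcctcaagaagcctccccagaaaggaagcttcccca
Hmgcs1: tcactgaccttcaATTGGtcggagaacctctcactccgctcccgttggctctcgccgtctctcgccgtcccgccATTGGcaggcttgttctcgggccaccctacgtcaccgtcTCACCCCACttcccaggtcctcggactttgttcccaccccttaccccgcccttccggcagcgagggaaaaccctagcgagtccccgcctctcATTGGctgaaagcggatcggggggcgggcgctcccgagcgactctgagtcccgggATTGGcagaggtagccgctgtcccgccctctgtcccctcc
Cyp51: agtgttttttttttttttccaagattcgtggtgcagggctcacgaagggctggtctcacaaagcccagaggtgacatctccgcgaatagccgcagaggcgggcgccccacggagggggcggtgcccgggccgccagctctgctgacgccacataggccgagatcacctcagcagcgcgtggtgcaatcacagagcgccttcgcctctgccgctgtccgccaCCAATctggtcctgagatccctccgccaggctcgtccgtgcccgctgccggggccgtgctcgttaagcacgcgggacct
Msmo1: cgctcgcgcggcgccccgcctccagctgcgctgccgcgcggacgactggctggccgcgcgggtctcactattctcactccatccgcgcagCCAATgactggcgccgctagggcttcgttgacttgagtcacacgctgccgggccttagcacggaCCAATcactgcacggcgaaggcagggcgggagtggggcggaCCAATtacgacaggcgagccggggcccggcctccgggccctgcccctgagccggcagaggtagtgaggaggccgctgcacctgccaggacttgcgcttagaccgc
Fasn: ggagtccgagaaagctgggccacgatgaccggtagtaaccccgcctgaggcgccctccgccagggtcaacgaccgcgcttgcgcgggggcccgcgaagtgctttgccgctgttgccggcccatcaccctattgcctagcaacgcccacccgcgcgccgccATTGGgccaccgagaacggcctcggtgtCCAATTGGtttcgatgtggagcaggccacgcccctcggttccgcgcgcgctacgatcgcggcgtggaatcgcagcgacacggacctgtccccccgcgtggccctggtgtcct

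Some genes have several listed promoters, and the 24 members have 33. A CCAAT box on either strand stood in 8 of the 10 promoters of sterol synthesis members and in 20 of the 33 of all members, against 37.4% of the 32851 promoters listed. Counted by gene, all 8 sterol synthesis members in the table had it in at least 1 promoter, against 41.1% of 27025 genes, and 2 of the 3 Dhcr7 promoters lacked it. The sterol regulatory element was present in 2 of the 33 member promoters, in Hmgcs1 and Acsl1, against 1.24% of all promoters. In Hmgcs1 it began 137 bases before the start. The CACGTG E-box stood in 5 of the 33, against 7.15% of all promoters. None of the 33 held the LXR element searched, a perfect DR4 repeat, which stood in 0.0152% of all promoters. These are matches of letters in a short window on both strands, in which a CCAAT box and its reverse complement can overlap, as they do in Fasn.

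The libraries held 17369071 and 13317214 UMIs, molecules counted once by their barcode, and 1899 and 1215 cells with medians of 5654 and 7137 UMIs. The libraries shared 2 cell barcodes. Cells were sorted into classes by fixed markers that held no member, and 11 classes had at least 20 cells in each library. They comprised 4 macrophage-like subsets, Retnla Ear2 monocyte-like cells, mature DC-like, cDC1-like and cDC2-like dendritic cells, and epithelial-like, fibroblast-like and T or NK-like cells. The last 3 classes are not myeloid, although the labels call the cells so. Itgax itself was at 11.7 to 25.5 CPM (UMIs scaled to the total UMIs of a class, on the usual CPM scale) in epithelial-like, fibroblast-like and Folr2 Pf4 cells and at 70.3 to 197 CPM in the other 8 classes. The summed level of 9 macrophage markers had medians of 13205 to 20214 CPM in the macrophage subsets, 1107 in monocyte-like cells and 149 to 218 in the 3 dendritic and the epithelial-like classes. The class sums held 138456 to 1725179 UMIs, so that 1 UMI in the smallest sum was 7.22 CPM. Free RNA made up an estimated 0.807% to 1.73% of each sum except in epithelial-like cells, where the estimate was 0, and in fibroblast-like cells of replicate 1, at 17.7%. Whether each library had its own mice is not given. The p-values measure how far differences between classes vary between these 2 libraries, a spread that may be technical.

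The 4 roles were spread over different classes. Summed over its 4 genes, fatty acid synthesis reached 835 and 701 CPM in epithelial-like cells in replicates 1 and 2, 175 and 168 CPM in fibroblast-like cells and 59.6 and 61.1 CPM in cDC1-like cells. The macrophage subsets had 54.2 and 48.6 CPM in the Spp1 Gpnmb subset, 29.2 and 26.1 in Vcam1 Olfml3, 18.1 and 17 in Ccr2 Fcgr4 and 18.3 and 3.64 in Folr2 Pf4. Epithelial-like cells thus stood above every other class in both libraries, also without Scd1, when their sum was 148 and 139.9 CPM.

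Sterol synthesis had its highest sum in mature DC-like cells, at 288 and 339 CPM (313 ± 36.3, mean ± SD, n = 2). Epithelial-like cells followed with 212 and 178 CPM and cDC2-like cells had 123 and 114 CPM. The macrophage subsets lay between 67.8 and 132 CPM, and fibroblast-like cells, at 90.5 and 187 CPM, overlapped the epithelial-like range. The sum of mature DC-like cells rested in large part on a single enzyme: without Idi1 it was 145 and 225 CPM, a range that overlapped the 191 and 169 CPM of epithelial-like cells, while cDC2-like cells had 102 and 91.4 CPM.

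The summed level of efflux, storage and lysosomal release genes was highest in the macrophage subsets. It was 2771 and 2534 CPM in Spp1 Gpnmb, 2644 and 2474 in Folr2 Pf4, 2571 and 2180.0 in Ccr2 Fcgr4 and 2449 and 2437 in Vcam1 Olfml3 macrophage-like cells. Monocyte-like cells had 1903 and 1935 CPM, mature DC-like cells 1743 and 1654, cDC1-like cells 1318 and 1217, cDC2-like cells 942 and 969 and epithelial-like cells 587 and 468. All macrophage subsets were above all dendritic and non-myeloid classes in both libraries. Npc2, the soluble carrier that passes cholesterol to NPC1 inside lysosomes, made up more than any other gene of this sum. Without it Folr2 Pf4 cells had 1273 and 1142 CPM, against 594 and 551 CPM in Vcam1 Olfml3 cells, while monocyte-like cells, at 611 and 648 CPM, overlapped the 618 and 544 CPM of Ccr2 Fcgr4 cells. The lead of Folr2 Pf4 cells rested on Pltp: without Npc2 and Pltp they had 586 and 524 CPM, against 526 and 496 CPM in Vcam1 Olfml3 cells, with 538 and 507 CPM in Spp1 Gpnmb cells, 412 and 303 CPM in Ccr2 Fcgr4 cells and 336 and 284 CPM in monocyte-like cells. The regulators, summed over 5 genes, had 214 and 151 CPM in epithelial-like cells and between 45.8 and 116 CPM in the other classes.

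**Figure D1:**
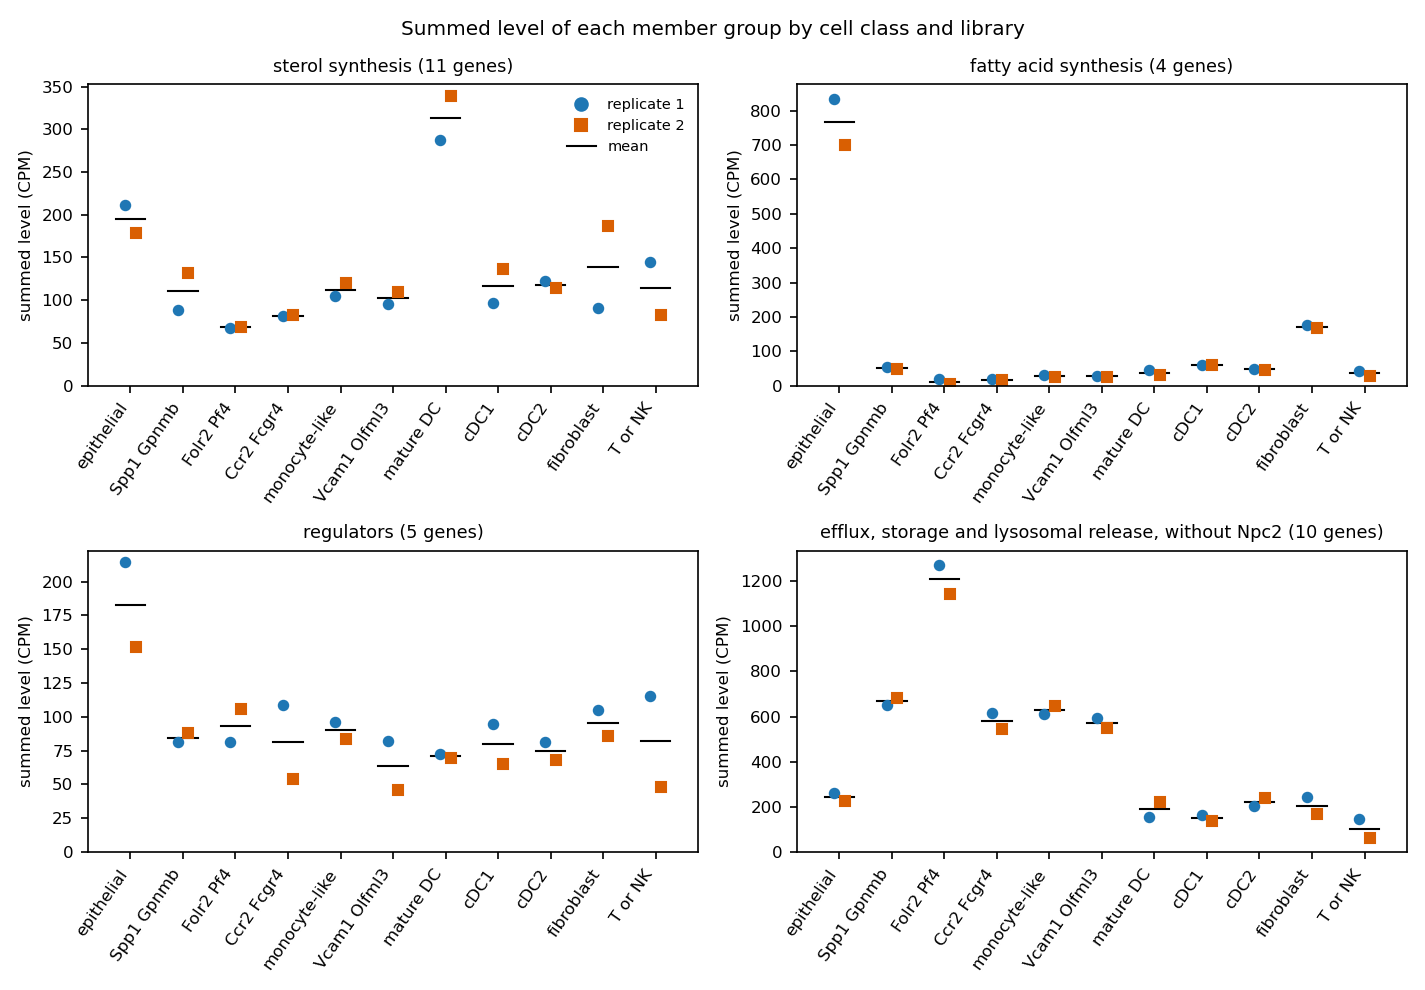
Summed level (CPM, linear axes that start at 0) of the 4 roles in the 11 classes, with circles for replicate 1, squares for replicate 2 and a line at their mean; Npc2 is left out of the efflux panel. Fatty acid synthesis peaks in epithelial-like cells at 835 and 701 CPM, sterol synthesis in mature DC-like cells and the efflux, storage and lysosomal release genes in Folr2 Pf4 cells.

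**Figure D2:**
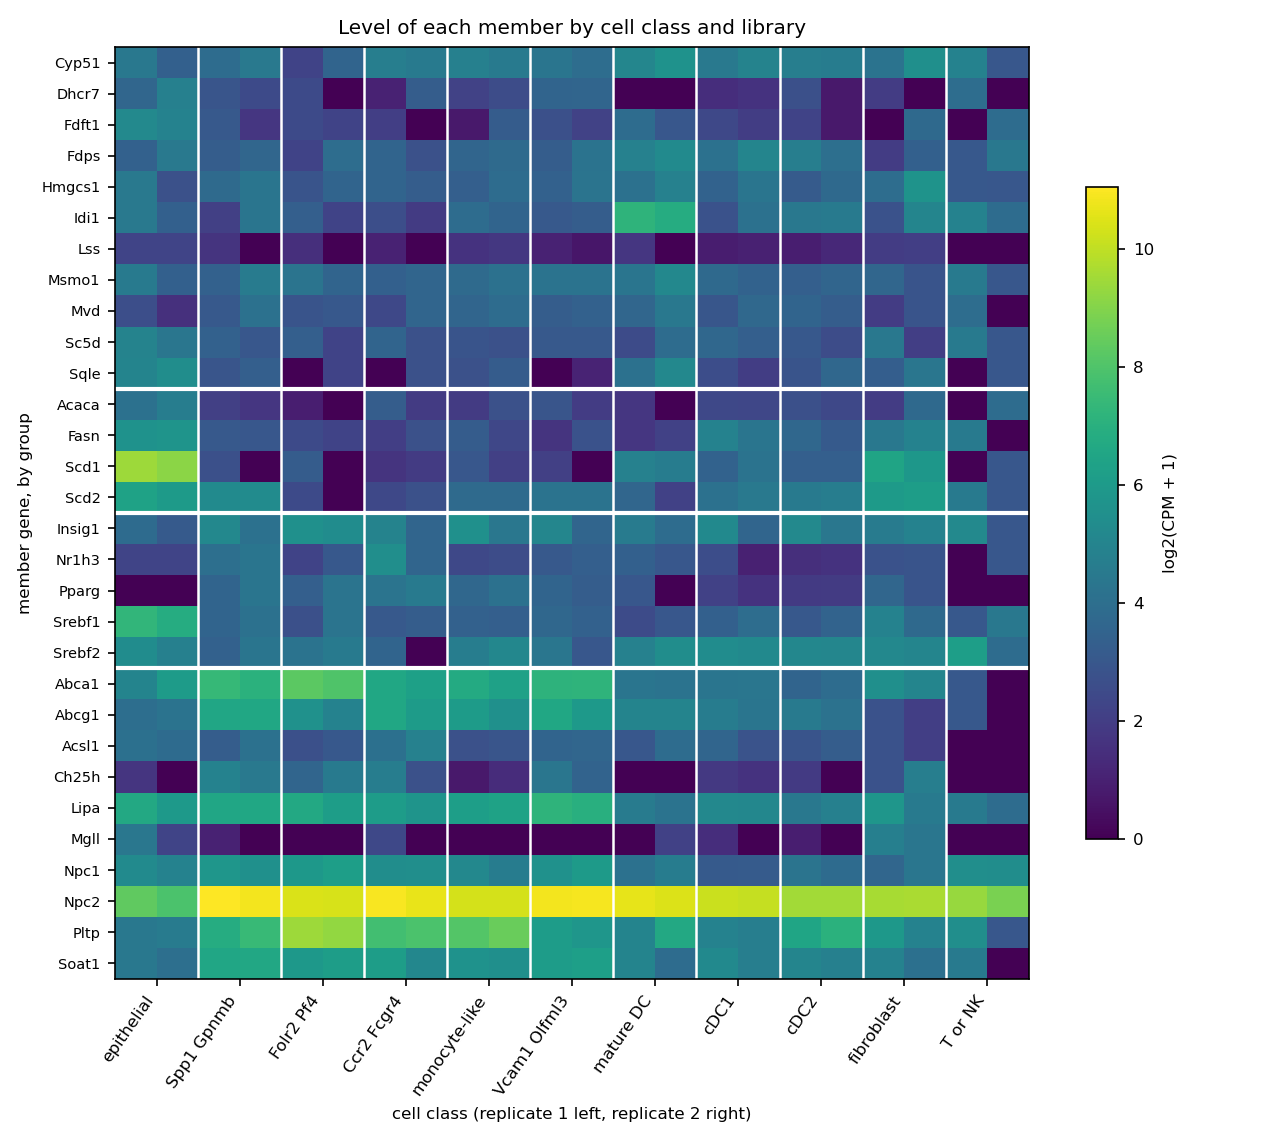
Level of every member entry apart from those of Apoc2 in each class, as colour on the scale log2(CPM + 1), with replicate 1 left and replicate 2 right within a class and members grouped by role. Npc2 is high in every class, Scd1 and Srebf1 stand out in epithelial-like cells, Idi1 in mature DC-like cells and Pltp in Folr2 Pf4 macrophage-like cells.

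Levels between classes were compared with edgeR's quasi-likelihood test on UMIs summed per library and class, with 9461 genes tested and a gene called at a Benjamini-Hochberg adjusted p under 0.05. The fold changes are on the log2 scale, ± SE, over 2 libraries. Of the 32 member entries 29 were tested. Lss, the synthase that closes squalene oxide into lanosterol, had 28 UMIs over the 11 classes, and the 2 Apoc2 entries had 4 and 0, which was too few.

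Macrophage subsets, taken as the mean of the 4, were first set against cDC2-like cells, a comparison in which 28.1% of all genes were called, 12.1% higher and 15.9% lower. Of 29 member entries, 10 were higher and 8 lower in macrophage subsets. Apart from the regulators, the direction of the called members split by role. Efflux, storage and lysosomal release had 8 of 10 tested genes higher and none lower, with a median log2 fold of 1.31 against −0.01 over all genes. Fatty acid synthesis had 3 of 4 lower and sterol synthesis 4 of 10 lower, with none higher. As a role sterol synthesis was not shifted as far: 5 log2 folds lay above 0 and 5 below, with a median of −0.18. Among the regulators Nr1h3 and Pparg were higher and Srebf2 was lower.

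The pump Abca1 (chromosome 4, 53030787 to 53159895, minus strand, GRCm38) exports cholesterol to apolipoprotein acceptors. It averaged 177 and 152 CPM over the macrophage subsets in replicates 1 and 2, against 10.8 and 14.1 CPM in cDC2-like cells. Both libraries of the macrophage subsets were far above both of the cDC2-like cells, and the log2 fold was 3.39 ± 0.26 (adjusted p = 4.75e-13). Ch25h, the enzyme that makes 25-hydroxycholesterol, had 115 UMIs in the macrophage subsets, against 3 in cDC2-like cells, a ratio of levels of 14.6 in the pooled libraries, with an exact 95% interval of 4.86 to 71.6 (adjusted p = 0.000179). Such intervals, and limits set by a count of 0, cover counting error only. LXR alpha, from Nr1h3, had 17.2 and 11.6 CPM in the macrophage subsets, against 1.81 and 2.11 in cDC2-like cells (2.29 ± 0.62, adjusted p = 0.00377). The subsets were not alike in Nr1h3. Most of their Nr1h3 UMIs in replicate 1 lay in Ccr2 Fcgr4 cells, so the mean of that library rested largely on them. Ccr2 Fcgr4 cells had Nr1h3 log2 folds of 2.15 and 0.22 against Vcam1 Olfml3 cells in replicates 1 and 2. Pparg, the receptor PPAR gamma that acts in lipid uptake and storage, had 12.2 and 17 CPM in the macrophage subsets, against 2.71 and 2.81 CPM in cDC2-like cells (2.03 ± 0.53, adjusted p = 0.00318). For these 4 genes the means of the subsets did not overlap cDC2-like cells. Called members here and below were named for the size of their fold, so lack of overlap is no separate support. The other 6 genes called higher were Lipa, Abcg1, Npc1, Npc2, Soat1 and Pltp, with log2 folds of 0.58 to 1.71. Pltp, the lowest of these, stayed called under 7 of 10 alternatives.

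On the synthesis side, Sqle, the squalene epoxidase, had 1.63 and 4.93 CPM in the macrophage subsets, against 6.32 and 11.9 CPM in cDC2-like cells (−2.45 ± 0.57, adjusted p = 0.000875). The desaturase Scd1, which puts a double bond into stearate, had 4.76 and 0.708 CPM in the macrophage subsets, against 9.03 and 9.14 CPM in cDC2-like cells (−1.86 ± 0.52, adjusted p = 0.00505). On the mean of the subsets both genes were lower in each library, at a few UMIs per class. In replicate 1 all Sqle UMIs of the subsets lay in Spp1 Gpnmb cells. Sqle in those cells was not below cDC2-like cells in replicate 1, but was below them in replicate 2. The Sqle fold averages log levels of subsets with few or no UMIs, so its size is not firm. Srebf2, Idi1, Scd2, Fdps, Fasn and Cyp51 were lower too on the mean of the subsets, by 1.01 to 1.75 on the log2 scale. The subsets were not alike in this. Summed fatty acid synthesis was at 54.2 and 48.6 CPM in Spp1 Gpnmb cells, not below the 48.7 and 45.7 CPM of cDC2-like cells in either library. Fasn, the fatty acid synthase, was at the edge, with an adjusted p of 0.0483 and a call kept under 1 of 10 alternatives. A wider list held 59 genes that are no members, of lipid uptake, apolipoproteins, droplets, oxidation and the other enzymes and regulators, and 51 of them were tested. Here 10 were higher and 8 lower. The lipoprotein protein Apoe was at 27121 and 29485 CPM in macrophage subsets, against 700.5 and 358 CPM in cDC2-like cells (5.58 ± 0.29). The scavenger receptor Msr1 had 525 UMIs in the macrophage subsets, against 3 in cDC2-like cells, a pooled ratio of 66.4 (22.6 to 323). Plin2, the coat protein of lipid droplets, was higher by 2.91 ± 0.20.

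Pltp was the member called in every comparison among the macrophage subsets. Each subset was set against the Vcam1 Olfml3 subset, so that these comparisons share their control cells and are not independent of each other. Pltp, the phospholipid transfer protein that moves lipids between lipoproteins (chromosome 2, 164839518 to 164857711, minus strand), was higher in the other 3 subsets and in monocyte-like cells. Its level was 687 and 618 CPM in Folr2 Pf4 cells, 275 and 364 in monocyte-like cells, 205 and 241 in Ccr2 Fcgr4 cells and 113 and 176 in Spp1 Gpnmb cells, against 68.1 and 55.6 CPM in Vcam1 Olfml3 cells. Folr2 Pf4 cells were highest of the 11 classes in both libraries, and all 4 classes lay above the Vcam1 Olfml3 range. Cells thinned to 1900 UMIs each showed a Pltp UMI in 155 of 228 and 26 of 52 Folr2 Pf4 cells in replicates 1 and 2, against 15 of 150 and 20 of 210 Vcam1 Olfml3 cells. In T or NK-like cells, which should lack it, the count was 2 of 27 and 0 of 33. Pltp overlaps Ctsa, a lysosomal protease gene on the opposite strand, and whether the counting used strand is not given in the sources used here.

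In Folr2 Pf4 cells against Vcam1 Olfml3 cells, 2 member entries were higher and 3 lower of 29, where 12.3% of all genes were called, 6.83% higher and 5.5% lower. Pltp was higher by 3.37 ± 0.27 (adjusted p = 5.64e-12), a 10.3-fold difference. Abca1 was at 308 and 255 CPM in Folr2 Pf4 cells, against 142 and 147 CPM in Vcam1 Olfml3 cells (0.89 ± 0.22, adjusted p = 0.00425). Its partner pump Abcg1, which loads mature lipoproteins, went the other way, with 46.7 and 29.1 CPM in Folr2 Pf4 cells, against 96.2 and 62.6 CPM in Vcam1 Olfml3 cells (−1.04 ± 0.27, adjusted p = 0.00632). The groups did not overlap for either pump. After thinning, an Abca1 UMI was seen in 46.1% and 34.6% of Folr2 Pf4 cells, against 24.7% and 25.2% of Vcam1 Olfml3 cells and 3.7% of T or NK-like cells in replicate 1 and 0 of 33 in replicate 2, which allows up to 9.09%. Median depths were 4287.5 and 4896.5 UMIs in Folr2 Pf4 cells, 5704.5 and 7610 in Vcam1 Olfml3 cells and 4381 and 3709 in T or NK-like cells. Without thinning the shares were 72.4% and 67.3% in Folr2 Pf4 cells, against 52% and 55.7% in Vcam1 Olfml3 cells.

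The desaturase Scd2 had 4.58 and 0 CPM in Folr2 Pf4 cells (5 and 0 UMIs), against 17.3 and 17.4 CPM in Vcam1 Olfml3 cells (−2.29 ± 0.58, adjusted p = 0.00586). Npc2 was lower by a smaller step, with 1372 and 1331 CPM in Folr2 Pf4 cells, against 1854 and 1886 CPM in Vcam1 Olfml3 cells (−0.57 ± 0.17, adjusted p = 0.0237), and this call was kept under 8 of 11 alternatives. Sterol synthesis had 0 of 10 genes called by edgeR or DESeq2 and 1 at an unadjusted p under 0.05, with 9 log2 folds below 0 and a median of −0.31, against −0.01 over all genes. Of the 51 wider genes, 2 were higher and 3 lower. Hilpda, an inhibitor of triglyceride breakdown at droplets, was higher by 1.23 ± 0.28 and the fatty acid receptor Cd36 by 1.16 ± 0.34. Scarb1, the HDL receptor, had a log2 fold of −1.65 ± 0.55, Lpcat3 of −1.44 ± 0.44 and Elovl5, a fatty acid elongase, of −1.23 ± 0.40.

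**Figure D3:**
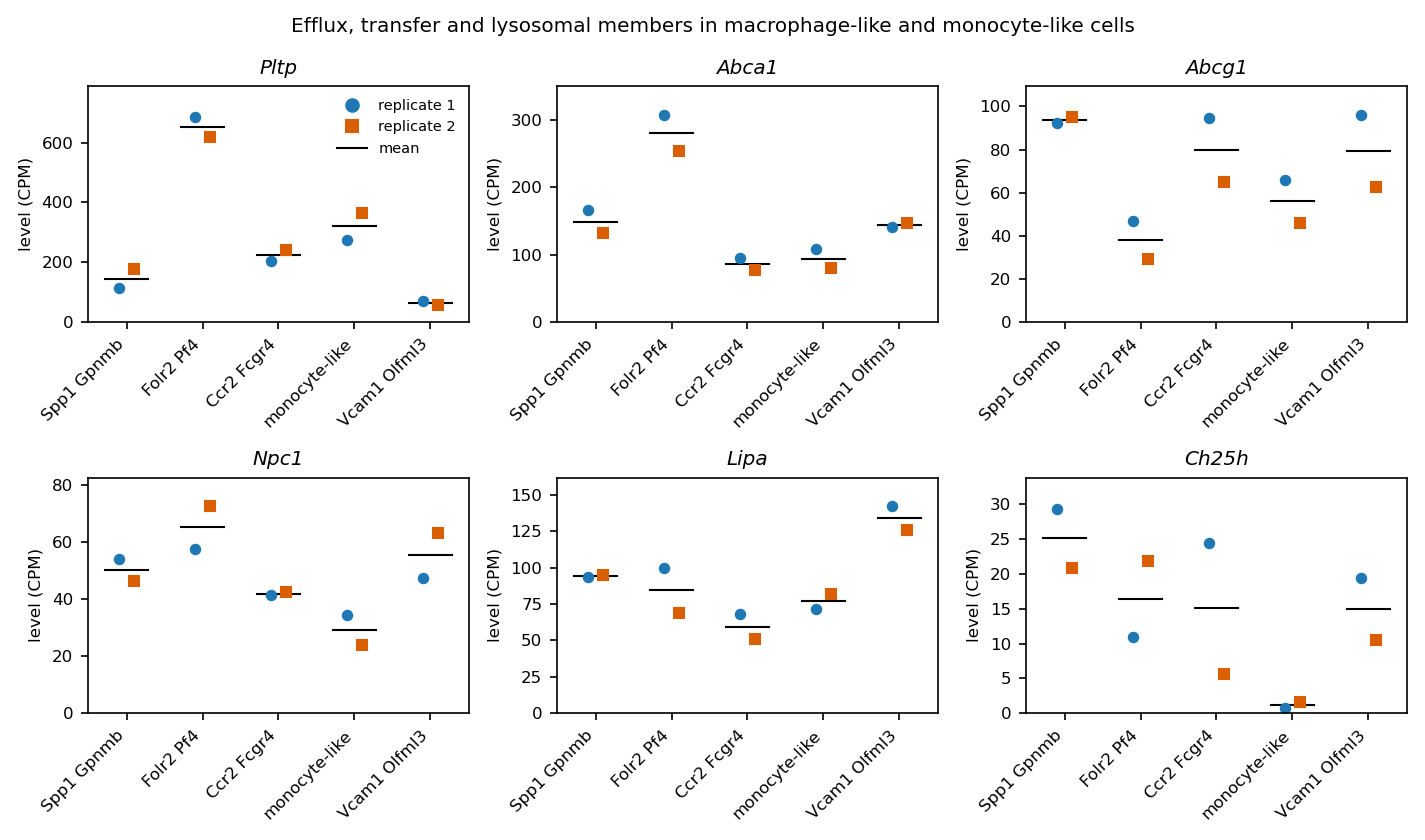
Level in CPM (linear axes that start at 0) of Pltp, Abca1, Abcg1, Npc1, Lipa and Ch25h in the 4 macrophage-like subsets and monocyte-like cells, with circles for replicate 1, squares for replicate 2 and a line at their mean. Pltp is highest in Folr2 Pf4 cells at 687 and 618 CPM and lowest in Vcam1 Olfml3 cells at 68.1 and 55.6 CPM, and Abca1 and Abcg1 do not share an order.

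Spp1 Gpnmb cells differed from Vcam1 Olfml3 cells in 1 of 29 member entries, where 2.52% of all genes were called, 1.7% higher and 0.814% lower. That entry was Pltp (1.17 ± 0.29, adjusted p = 0.0136), with log2 folds of 0.68 and 1.59 in replicates 1 and 2 and a call kept under 7 of 10 alternatives. Scd2 had 38 and 39.3 CPM in Spp1 Gpnmb cells, against 17.3 and 17.4 CPM in Vcam1 Olfml3 cells, without overlap, but did not pass (adjusted p = 0.093). Sqle had 6 and 4 UMIs in Spp1 Gpnmb cells, against 0 and 2 in Vcam1 Olfml3 cells, and did not pass either (adjusted p = 0.0592). Both were chosen after their values were seen. The wider list showed larger steps: 6 of 51 genes were called, all higher, 3 that bind fatty acids or act at droplets and 3 of uptake. Fabp5, a fatty acid carrier, was at 3554 and 1296 CPM in Spp1 Gpnmb cells, against 104 and 222 CPM in Vcam1 Olfml3 cells (3.79 ± 0.39), and its relative Fabp4 at 141 and 9.26, against 3.24 and 1.74 CPM (5.01 ± 0.70). The lead of both genes was much larger in replicate 1, with log2 folds of 5.04 and 2.50 for Fabp5 and 4.62 and 1.46 for Fabp4 in replicates 1 and 2. Msr1 (1.19 ± 0.28) and the lipoprotein lipase Lpl (1.13 ± 0.24) were higher as well.

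In Ccr2 Fcgr4 cells against Vcam1 Olfml3 cells, 2 member entries were higher and 1 lower of 29, where 2.49% of all genes were called, 1.79% higher and 0.708% lower. Pltp was higher by 1.85 ± 0.28 (adjusted p = 3.57e-05). The lysosomal acid lipase Lipa, which frees cholesterol from its esters, was at 68 and 51 CPM in Ccr2 Fcgr4 cells, against 143 and 126 CPM in Vcam1 Olfml3 cells, and fell by 1.17 on the log2 scale (SE 0.26, adjusted p = 0.00531). Neither gene overlapped between the groups. Nr1h3 was called (1.74 ± 0.49, adjusted p = 0.0423), but the libraries did not share its size. Its level was 42.5 and 11.3 CPM in Ccr2 Fcgr4 cells over 40 and 4 UMIs, against 7.56 and 9.27 CPM in Vcam1 Olfml3 cells, and the log2 folds were 2.15 and 0.22 in replicates 1 and 2. The call was kept under 6 of the 8 alternatives that gave an adjusted p, and was lost without the library block and without the margin of the gate. DESeq2 called 0 of the 5 regulators here, Nr1h3 among them. Nr1h3 overlaps Gm13783 on the same strand. Apoe was the 1 wider gene called, at 17637 and 23082 CPM in Ccr2 Fcgr4 cells, against 35889.8 and 40414 CPM in Vcam1 Olfml3 cells (−0.91 ± 0.25).

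Monocyte-like cells had the most member entries called against Vcam1 Olfml3 cells among these classes, and the most of all genes as well. Here 3 of 29 member entries were higher and 5 lower, where 20.3% of all genes were called, 11.1% higher and 9.22% lower. Efflux, storage and lysosomal release held all 5 that were lower. Of its 9 tested genes with UMIs in either class, 8 had a log2 fold below 0, and Mgll had 0 UMIs in both. Ch25h had 3 UMIs in monocyte-like cells, against 36 in Vcam1 Olfml3 cells, a pooled ratio of 12.0 in favour of Vcam1 Olfml3 cells (3.78 to 60.7, adjusted p = 0.00118). Npc1, the lysosomal membrane protein that exports cholesterol, was at 34.4 and 23.8 CPM in monocyte-like cells, against 47.6 and 63.2 CPM in Vcam1 Olfml3 cells (−0.92 ± 0.26, adjusted p = 0.00849). Lipa was at 71.6 and 82.2 CPM in monocyte-like cells, against 143 and 126 CPM in Vcam1 Olfml3 cells (−0.78 ± 0.22, adjusted p = 0.00971). These ranges did not overlap. Npc2 (−0.51 ± 0.17) and Abca1 (−0.60 ± 0.22, adjusted p = 0.0497) were lower by less, and the Abca1 call was kept under 5 of 11 alternatives.

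The 3 higher in monocyte-like cells were Pltp, Sqle and Srebf2. Pltp was higher by 2.41 ± 0.26 (adjusted p = 3.88e-09). Sqle had 18 UMIs in monocyte-like cells, against 2 in Vcam1 Olfml3 cells, a pooled ratio of 9.03 (2.16 to 80.3, adjusted p = 0.00753), and its call was kept under 9 of 11 alternatives. Srebf2 was at 24.6 and 33.7 CPM in monocyte-like cells, against 19.5 and 6.96 CPM in Vcam1 Olfml3 cells (1.31 ± 0.41, adjusted p = 0.0183). Most of the Srebf2 difference came from replicate 2, with log2 folds of 0.34 and 1.96 in replicates 1 and 2, and the call was kept under 9 of 11 alternatives, lost with DESeq2 and without the library block. Among 51 wider genes 9 were higher and 5 lower in monocyte-like cells. Apoe was at 2609 and 2306 CPM in monocyte-like cells, against 35889.8 and 40414 CPM in Vcam1 Olfml3 cells (−3.95 ± 0.28), and Mylip, an LXR target that encodes a ubiquitin ligase, had a log2 fold of −2.74 ± 0.38. The lipoprotein lipase Lpl was higher by 2.40 ± 0.23, at 634 and 589 CPM in monocyte-like cells, against 143 and 98.5 CPM in Vcam1 Olfml3 cells.

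Mature DC-like cells, the dendritic cells that express Ccr7 and Fscn1, were set against cDC2-like cells. Of 29 member entries 2 were called, both higher, where 8.29% of all genes were called, 4.9% higher and 3.38% lower. The first was Idi1 (chromosome 13, 8885501 to 8892451, plus strand), the isomerase that makes dimethylallyl diphosphate for all later steps of isoprenoid and sterol synthesis. It was at 143 and 114 CPM in mature DC-like cells (61 and 33 UMIs), against 20.8 and 22.5 CPM in cDC2-like cells (23 and 32 UMIs). Both libraries of mature DC-like cells were above every library of the other 10 classes, whose highest was 31.7 CPM. The log2 fold was 2.59 ± 0.37, a 6.04-fold difference (adjusted p = 3.71e-06). After thinning to 1900 UMIs an Idi1 UMI was present in 17.2% (8.9 to 28.7) and 22.5% (10.8 to 38.5) of mature DC-like cells, with exact 95% intervals in parentheses. The shares were 4.55% and 4.52% of cDC2-like cells, and 0 of 27 and 0 of 33 T or NK-like cells, which allow up to 11.1% and 9.09%. Before thinning, T or NK-like cells held Idi1 UMIs in both libraries, so they are no blank for this gene. The median cell had 6185 and 7394.5 UMIs in mature DC-like cells and 5877 and 7601 in cDC2-like cells before thinning, and the unthinned shares were 37.5% and 37.5% in mature DC-like cells, against 10.8% and 13% in cDC2-like cells. Idi1 kept its call under all 11 alternatives, among them the one without cycling cells, which made up 7.81% and 5% of mature DC-like cells, against 10.2% and 14.1% of cDC2-like cells.

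Most other sterol synthesis members lay in the same direction without passing the test one by one. Of 10 tested, 9 had a positive log2 fold, Idi1 among them. The median was 0.89 over all 10 and 1.05 over the 9 with UMIs in mature DC-like cells, against −0.11 over all genes. Dhcr7, a reductase of the last steps, had 0 UMIs in mature DC-like cells. The shift was less even in the wider list, where 0 of 9 tested sterol synthesis genes were called. Of these 9, 5 had a log2 fold above 0 and 4 below, with a median of 0.62. The hydroxymethylglutaryl-CoA synthase Hmgcs1, which opens the pathway, was at 16.4 and 27.7 CPM in mature DC-like cells, against 8.12 and 12.6 CPM in cDC2-like cells (1.05 ± 0.57). The methylsterol oxidase Msmo1 was at 18.7 and 34.6 CPM in mature DC-like cells, against 9.03 and 11.2 in cDC2-like cells (1.30 ± 0.52), and Sqle at 16.4 and 34.6 CPM, against 6.32 and 11.9 in cDC2-like cells (1.43 ± 0.56). In both libraries of mature DC-like cells all 3 were above both of cDC2-like cells, and the 3 were picked after their values were seen. After thinning, 34.4% of mature DC-like cells in replicate 1 and 40% in replicate 2 had a UMI of at least 1 of the 11 sterol synthesis genes, against 16.5% and 18.6% of cDC2-like cells. Shares with UMIs of at least 2 of them were 7.81% and 15.0% in mature DC-like cells, against 3.41% and 1.69% in cDC2-like cells. Idi1 is among the 11, so these shares in part repeat its difference, and shares without it were not computed. Summed levels without Idi1 were 145 and 225 CPM in mature DC-like cells, against 102 and 91.4 CPM in cDC2-like cells. Srebf2 differed by 0.01 ± 0.45 (95% interval −0.99 to 1.02), at 28.1 and 41.5 CPM in mature DC-like cells, against 33.4 and 33 CPM in cDC2-like cells.

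**Figure D4:**
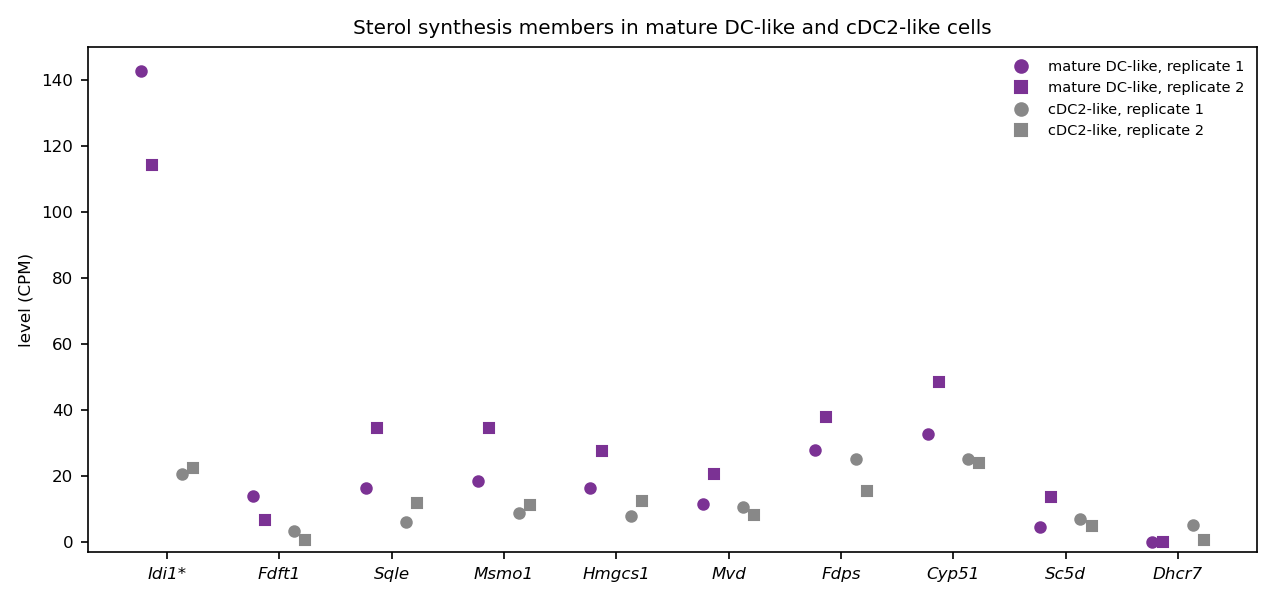
Level in CPM (linear axis) of the 10 tested sterol synthesis genes in mature DC-like cells (left of each pair) and cDC2-like cells, with circles for replicate 1, squares for replicate 2 and an asterisk on the gene called. Idi1 shows the widest gap, 143 and 114 CPM in mature DC-like cells, against 20.8 and 22.5 CPM in cDC2-like cells, and Dhcr7 has 0 UMIs in mature DC-like cells.

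The second gene called was Npc2 (chromosome 12, 84754562 to 84773152, minus strand), with 1586 and 1432 CPM in mature DC-like cells, against 737 and 731 CPM in cDC2-like cells (1.04 ± 0.18, adjusted p = 4.33e-05). This put mature DC-like cells within the 1331 to 2120 CPM spanned by the macrophage subsets, while their other 10 efflux, storage and release genes summed to 157 and 221 CPM. The summed level of the 9 macrophage markers had a median of 218 CPM in mature DC-like cells, against 195 CPM in cDC2-like cells. Fatty acid synthesis had 0 of 4 genes called by edgeR or DESeq2 and 2 at an unadjusted p under 0.05, Scd1 with a log2 fold of 1.49 ± 0.54 and Scd2 with −1.49 ± 0.56, in opposite directions. In the wider list 4 of 51 genes were higher and 1 lower. Fabp5 was at 2842 and 3239 CPM in mature DC-like cells, against 113 and 172 CPM in cDC2-like cells (4.40 ± 0.39), and Apoe at 1322 and 2131 CPM, against 700.5 and 358 CPM in cDC2-like cells (1.79 ± 0.27). Fabp4 (3.04 ± 0.98) and Cd36 (2.25 ± 0.60) were higher, though Cd36 mostly in replicate 2, with log2 folds of 0.40 and 4.14 in replicates 1 and 2. Hilpda was at 53.8 and 79.6 CPM in mature DC-like cells, against 283 and 253 CPM in cDC2-like cells (−2.03 ± 0.30).

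In cDC1-like against cDC2-like cells, 1 member entry was higher and 1 lower of 29, where 9.82% of all genes were called, 4.07% higher and 5.75% lower. Pltp was at 28.9 and 25.5 CPM in cDC1-like cells, against 90.3 and 131 CPM in cDC2-like cells, without overlap (−2.07 ± 0.31, adjusted p = 7.22e-06). Npc2 was at 1152 and 1078 CPM in cDC1-like cells, against 737 and 731 CPM in cDC2-like cells (0.53 ± 0.17, adjusted p = 0.04), a call kept under 7 of 11 alternatives. Fasn was at 28.9 and 18.3 CPM in cDC1-like cells, against 11.7 and 7.73 CPM in cDC2-like cells, without overlap, but did not pass (adjusted p = 0.0512). Sterol synthesis had a median log2 fold of 0.04, with 5 of 10 genes on either side of 0. Wider genes were called in both directions, 5 higher and 5 lower of 51, with Cd36 at 3.29 ± 0.43, Apoe at 1.87 ± 0.26, the sterol dehydrogenase Nsdhl at 2.10 ± 0.58, Hilpda at −2.88 ± 0.27 and Dgat1, which makes triglycerides, at −1.83 ± 0.30.

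Epithelial-like cells, which carry the keratin and claudin markers, were set against the mean of the macrophage subsets. Here 48.7% of all genes were called, 27.9% higher and 20.8% lower, and the median log2 fold over all genes was 0.14. Of 29 member entries 11 were higher and 11 lower, again split by role. All 4 fatty acid synthesis genes and 4 of 10 sterol synthesis genes were higher with none lower, while 8 of 10 efflux, storage and release genes were lower and 1 higher. Srebf1 and Srebf2 were higher, and Nr1h3, Pparg and Insig1 lower.

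Scd1 (chromosome 19, 44394455 to 44407879, minus strand) showed the largest fold change of the 22 members called. It was at 687 and 561 CPM in epithelial-like cells, against 4.76 and 0.708 CPM in the macrophage subsets (7.36 ± 0.25, adjusted p = 3.1e-24). After thinning, 45% and 29.5% of epithelial-like cells had an Scd1 UMI, against 1.33% of Vcam1 Olfml3 cells in replicate 1 and 0 of 210 in replicate 2, which allows up to 1.43%. In free RNA, taken from barcodes of at most 50 UMIs, Scd1 was at 175 and 105 CPM, above its level in every macrophage subset. Sqle was at 30.3 and 42.2 CPM in epithelial-like cells, against 1.63 and 4.93 CPM in the macrophage subsets (3.89 ± 0.46, adjusted p = 3.49e-09). Mgll, which splits monoglycerides, had 26 and 2 UMIs in epithelial-like cells, against 5 and 0 in the macrophage subsets (4.36 ± 0.85, adjusted p = 5.49e-05), and thus rested mostly on replicate 1. Vcam1 Olfml3 cells, among the subsets averaged, held no Mgll UMI, so the size of this fold is not firm. Srebf1 (chromosome 11, 60199089 to 60222581, minus strand), whose product drives these fatty acid genes, was at 156 and 113 CPM in epithelial-like cells, against 8.92 and 13.2 CPM in the macrophage subsets (3.44 ± 0.24, adjusted p = 4.63e-15). Fasn was at 49.2 and 51.7 CPM in epithelial-like cells, against 4.38 and 5.51 CPM in the macrophage subsets (2.95 ± 0.33). The groups did not overlap for any of these genes, and Srebf1 and Fasn were added after their values were seen. The called sterol genes besides Sqle were Fdft1, Dhcr7 and Sc5d, higher by 1.23 to 2.65, and Dhcr7 kept its call under 5 of 9 alternatives.

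On the other side, Pparg had 0 UMIs in epithelial-like cells, against 83 in the macrophage subsets, and was at least 7.65-fold lower against a floor of 3 counts over both libraries. Ch25h had 3 UMIs in epithelial-like cells, against 115 in the macrophage subsets, a pooled ratio of 10.6 in favour of the macrophage subsets (3.54 to 52.1, adjusted p = 3.88e-05). Pltp was at 20.4 and 23 CPM in epithelial-like cells, against 268 and 273 CPM in the macrophage subsets (−3.47 ± 0.30, adjusted p = 1.2e-12). The other efflux, storage and release genes that were lower, Npc2, Abcg1, Soat1, Abca1, Npc1 and Lipa, had log2 folds of −2.99 to −0.49, and the call of Lipa, the smallest, was kept under 5 of 10 alternatives. The 9 macrophage markers had a summed median of 158 CPM in epithelial-like cells, and the 10 markers of the Spp1 Gpnmb subset one of 1002 CPM.

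Of the 51 wider genes 17 were higher and 8 lower, a share near that of all genes called. Me1, which supplies NADPH for fatty acid synthesis, had 128 UMIs in epithelial-like cells, against 3 in the macrophage subsets, a pooled ratio of 154 (51.6 to 758). The elongase Elovl6 (5.38 ± 0.89), Apoc1 (3.87 ± 0.36), and the SREBP retention and escort genes Insig2 (1.75 ± 0.30) and Scap (1.73 ± 0.34) were higher. Fatty acid oxidation had 4 of 7 genes higher and 0 lower, among them Acadl at 1.88 ± 0.18. Uptake had 4 of 7 lower, among them Cd36 at −4.24 ± 0.47, and Msr1 with 3 UMIs in epithelial-like cells, against 525 in the macrophage subsets, while the HDL receptor Scarb1 was higher by 1.17 ± 0.32. Apoe was at 1101 and 581 CPM in epithelial-like cells, against 27121 and 29485 CPM in the macrophage subsets.

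**Figure D5:**
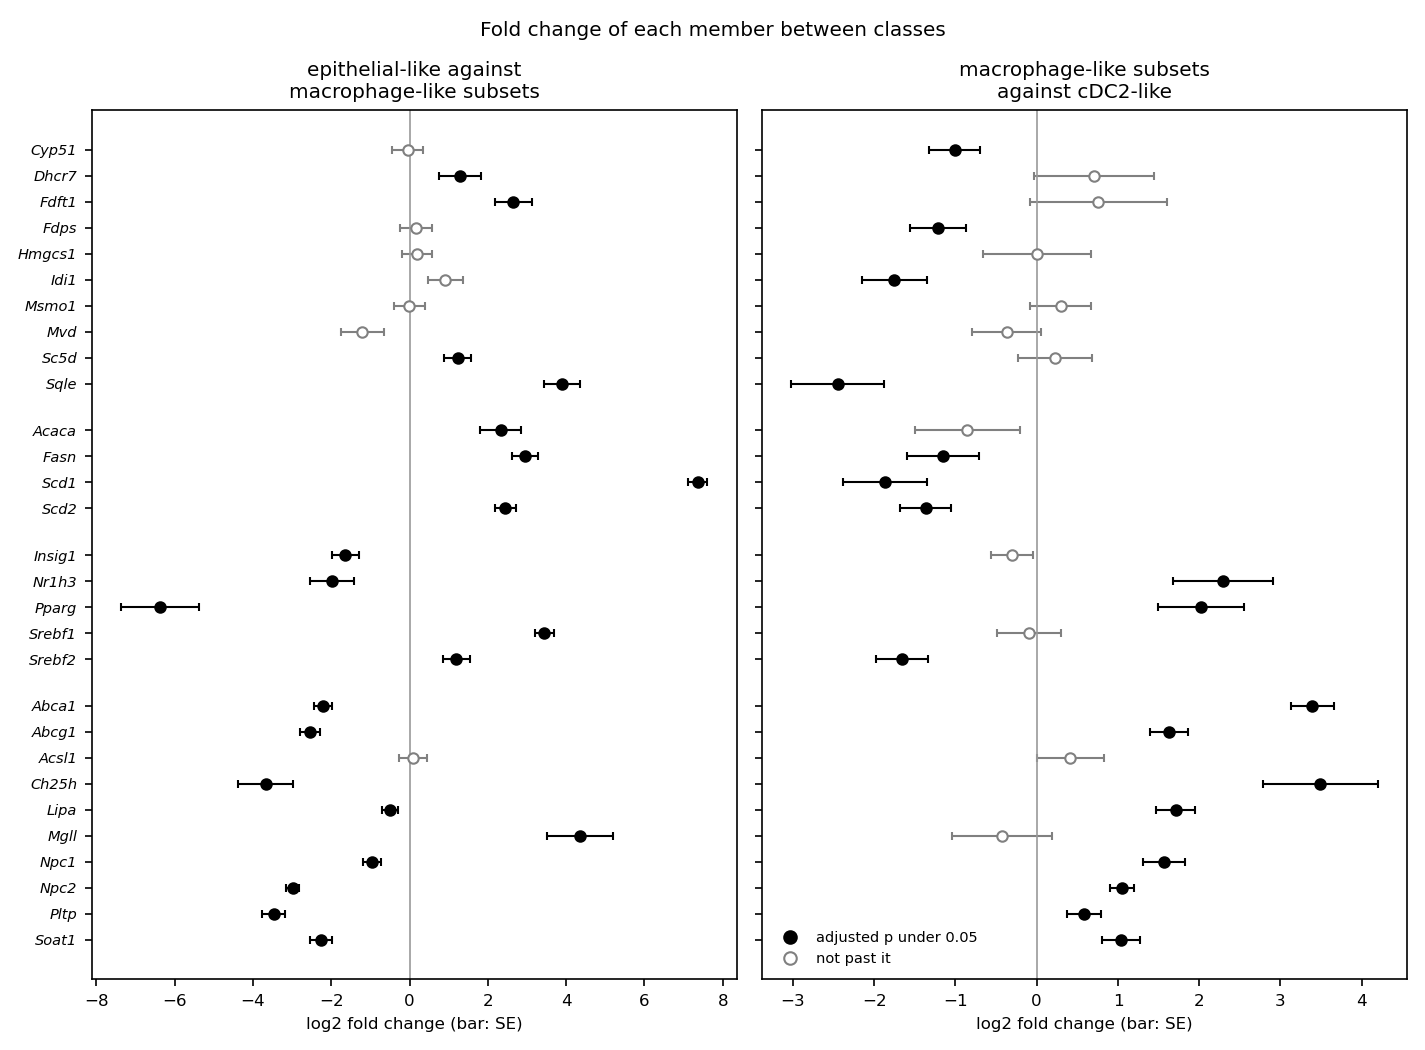
Log2 fold change of each tested member in epithelial-like cells against the macrophage subsets (left panel) and in the macrophage subsets against cDC2-like cells (right panel), with SE bars and filled points for called members, ordered by role. Efflux, storage and lysosomal release genes lie left of 0 in the left panel, apart from Mgll and Acsl1, and right of 0 in the right panel, apart from Mgll. Pparg had 0 UMIs in epithelial-like cells, so its point there is no bound.

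The remaining members rarely passed the test. Acsl1, the ligase that activates fatty acids, had an edgeR adjusted p of at least 0.262 in every comparison and lay between 0 and 28.3 CPM over the 11 classes and both libraries. Mvd, the decarboxylase of the mevalonate pathway, and Hmgcs1, Msmo1 and Acaca did not pass in any comparison of myeloid classes. Insig1 was at 45.8 and 40.0 CPM in Folr2 Pf4 cells and 13.6 and 7.66 CPM in epithelial-like cells, the highest and lowest mean among the myeloid and epithelial-like classes. Fdps overlaps Gm43738 on the same strand. On the opposite strand Fdft1, Cyp51, Srebf1, Npc1, Mvd and Acaca overlap a protein-coding gene, and Idi1, Hmgcs1, Ch25h, Soat1, Pparg, Mgll, Acsl1, Lss and Nr1h3 overlap a noncoding or unclassified one. Reads of such pairs may be mixed in their counts.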

How the data were processed

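The labels give 10x Chromium Single Cell 3' v2 libraries of CD11c-selected cells, and the submitters' processing notes name Cell Ranger 2.2.0 and mm10. The authors deposited unfiltered UMI counts per gene and barcode (27998 genes, 737280 barcodes), with no normalization. Whether strand was used in counting is not given in the sources used here. Members and lists were chosen with earlier results of these data known.

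Barcodes with at least 10% of the UMIs at the 99th percentile of the top 3000 (2112 and 1905 UMIs), 200 genes and at most 10% mitochondrial UMIs were kept, and 31 and 13 likely doublets were removed with Scrublet (scanpy 1.11.5). Each cell was gated to the class with the highest mean standardised marker level, with at least 3 markers detected and a margin of 0.2 SD. The minimum of 3 was added after class sizes were seen. This left 2370 cells in 11 classes, 398 macrophage-lineage cells without a subset and 307 ungated cells. A margin under 0.4 held for 323 of 1052 subset cells, so the subsets grade into each other.

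UMIs were summed per library and class and tested with edgeR 4.0.16 (quasi-likelihood, TMM, filterByExpr) in R 4.3.3, with 22 sums in 1 fit, 10 residual degrees of freedom and the library as a block, since all classes of a library come from 1 capture. Of 9577 genes past the filter, 116 gate markers were not tested, and Benjamini-Hochberg adjustment ran over the other 9461. The fits were tested on simulated data for mature DC-like against cDC2-like cells. Most of the smaller true changes were not called there, so a gene not called may still differ. Per-library folds add a prior count of 2. Macrophage subsets enter as the mean of their 4 log levels. Comparisons that share a group (Vcam1 Olfml3 in 4, cDC2-like in 3) are not independent. Named were up to 6 called members a comparison with the largest folds and the same sign in both libraries, and up to 2 called genes for each part of the wider list. Other members are given by counts and ranges, and exceptions are marked as chosen after their values were seen. Alternatives were DESeq2 1.42.0, its scaling in edgeR, no filter on low counts, no library block, Leiden clusters for the gate, no margin, no marker minimum, no doublet removal, cells of at least 1000 UMIs, no cycling cells, free RNA subtracted and each library alone. Gene positions are those of GENCODE M21 (GRCm38). Some genes of the wider list are not reported here.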

Additional observations from a re-analysis of the deposited data

Results flagged for a closer look

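Classes with under 20 cells in a library stayed out of the fit. Among members with more than 3 UMIs there, 3 were above their mean level in each of the 11 classes. Npc1 was at 153 CPM over 13 UMIs in 11 plasmacytoid dendritic-like cells, and 8 of the 11 cells had a UMI. Among 11 endothelial-like cells, Ch25h was at 83.6 CPM over 6 UMIs and Mgll at 69.7 CPM over 5 UMIs, each in 3 cells. These values have no replicate check and no test, and were picked out because they lie in cells that no comparison used.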

How the results depend on the processing

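Of 61 member calls over the 8 comparisons, none changed direction under any alternative tried: 573 of 622 values stayed past the threshold and 49 did not, and all 122 single-library folds kept their sign. Alternatives that gave no adjusted p for a gene were left out of these counts. The single-library folds come from the same 2 libraries that gave the calls, so their signs are no separate support. The libraries are paired by capture, and without the replicate block the counts called were 0 by edgeR for Spp1 Gpnmb against Vcam1 Olfml3 (1 with the block), 1 for Ccr2 Fcgr4 (3), 5 for monocyte-like cells (8) and 1 for cDC1-like against cDC2-like cells (2). The other counts without the block were within 1.5 times: 4 for Folr2 Pf4, 2 for mature DC-like cells, 16 for the macrophage subsets and 20 for epithelial-like cells. For Spp1 Gpnmb cells the count was also 0 with DESeq2 and with no margin, and 2 with no filter on low counts. For cDC1-like cells it was 1 with no filter and 4 with Leiden clusters, which gave 7 for mature DC-like cells, against 2. The cause was not tested. Leiden clusters held no Spp1 Gpnmb class and under 20 Ccr2 Fcgr4 cells in replicate 2, so neither those nor the comparisons with the mean of the subsets gave a value. Of 300 recomputed sums of a role, 1 moved by over 1.5 times, fatty acid synthesis in Folr2 Pf4 cells at 17.1 CPM with Leiden clusters. Depth limits most synthesis genes, many at under 20 UMIs per library in the smaller classes.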
